A study of Mus musculus with 4 samples.

Results

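Wide RBPJ regions were intervals longer than 3 kb in which peaks of 2 RBPJ libraries overlapped in alveolar macrophages (AMs). Overlapping peaks of both lists were merged, merged intervals with peaks from both libraries made up the consensus, and the members were selected on their width alone, as those over 3000 bp. There were 547 of them among 25454 consensus regions (2.15%), and they held 11.9% of the consensus sequence. AMs from 9-wk-old WT C57BL/6J mice were obtained by bronchoalveolar lavage and cell sorting, and RBPJ was profiled by HT-ChIPmentation, an immunoprecipitation of chromatin with tagmentation for small cell numbers, using an Abcam antibody to RBPJ. The 2 RBPJ libraries (replicates 1 and 2) shared genotype, tissue and antibody, and the 2 input libraries entered only the authors' peak calling. No second condition, RBPJ-deficient sample or separate animal per library was labelled, so the description rests on the spread between these libraries, which may be technical.

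RBPJ is the DNA-binding protein through which cleaved Notch receptors reach their target genes. Without Notch it can recruit corepressors to the same sites. Sequence-specific factors mostly give narrow peaks in chromatin profiling, and wide intervals are better known from histone marks over active genes and clustered enhancers. AMs depend on GM-CSF and TGF-β, on the nuclear receptor PPARγ and on a program of lipid handling and phagocytosis.

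Replicate 1 listed 106228 peaks, 444 of them over 3 kb, and replicate 2 listed 47224 peaks, 86 of them over 3 kb. The peak lists carry no read counts, and the read totals that the study tabulates, higher for replicate 1, were not used here. Genes marking other cell types were searched for a transcription start site (TSS) inside a wide region. It was found in 0 of 14 T and B lymphocyte, 0 of 11 neutrophil, 0 of 12 alveolar type II and 0 of 12 endothelial genes. Of 14 neuronal and 13 monocyte genes 0 had one, against 9 of 30 AM identity genes. Since 1.01% of all protein-coding genes did, and at most 2 genes of each of the other lists had a TSS in any consensus region, these zeros are at the background and check the cell type only weakly. Gene positions came from the basic GENCODE transcripts of GRCm38 (mm10), and coordinates count from 1.

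The widest members lay over 2 nuclear long noncoding RNA genes and over genes induced within minutes of cell stimulation. The sequence at the summits of the 6 widest members that could be shown is given below, with 50 bp either side of the stronger of the libraries' summits by fold, because the summit is where peak calling placed the strongest signal. Capitals mark letters of the motifs searched. The Neat1 summit lay 37 bp from the start of the Neat1 gene and the Klf6 summit 175 bp from a Klf6 TSS, whereas the Mcl1 summit lay 8024 bp from the nearest protein-coding TSS, and only the Mcl1 window held a searched motif, that of AP-1.
Neat1, chr19:5845465-5845565, plus strand: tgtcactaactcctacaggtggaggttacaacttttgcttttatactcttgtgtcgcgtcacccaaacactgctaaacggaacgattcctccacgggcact
Klf6, chr13:5861257-5861357, plus strand: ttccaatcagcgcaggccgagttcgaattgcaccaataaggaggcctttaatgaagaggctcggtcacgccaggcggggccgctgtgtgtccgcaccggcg
Mcl1, chr3:95650714-95650814, plus strand: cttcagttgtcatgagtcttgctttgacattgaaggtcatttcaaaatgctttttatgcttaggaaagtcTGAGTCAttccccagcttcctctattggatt
Zfp36, chr7:28382884-28382984, plus strand: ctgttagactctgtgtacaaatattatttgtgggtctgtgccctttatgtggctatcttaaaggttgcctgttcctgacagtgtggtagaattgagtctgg
Sgk1, chr10:21995191-21995291, plus strand: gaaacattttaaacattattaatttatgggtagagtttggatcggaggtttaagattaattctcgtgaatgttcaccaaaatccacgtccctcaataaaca
Malat1, chr19:5802434-5802534, plus strand: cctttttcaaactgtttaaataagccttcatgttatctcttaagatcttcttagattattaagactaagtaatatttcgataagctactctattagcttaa

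The widest of all was a region of 21236 bp at chr19:5827682-5848917 that held the start and 85.7% of Neat1, the RNA scaffold of nuclear paraspeckles, and no protein-coding TSS. Its highest fold enrichment over background, as the peak caller gives it at the summit, was 29.9 in replicate 1 and 27.8 in replicate 2. A neighboring region of 12115 bp (chr19:5792626-5804740) contained the whole of Malat1, a nuclear RNA of splicing speckles, with folds of 24.4 and 22.4. Both lncRNA genes thus lay under regions among the 6 widest, and the noncoding genes were singled out after their values were seen, since members are named here by protein-coding genes.

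Klf6, a zinc-finger factor induced early in macrophage activation, had the second widest region, 19284 bp at chr13:5858989-5878272, with folds of 21.8 and 13.4. It reached 2493 bp upstream and 16790 bp downstream of the TSS and went 7878 bp past the end of the longest transcript starting inside it. Mcl1, which encodes an anti-apoptotic BCL2 family protein, had a region of 16258 bp (chr3:95649535-95665792) with folds of 13.3 and 13.7. That region extended further upstream, by 9253 bp, than downstream, by 7004 bp. The gene for the mRNA-destabilizing protein Zfp36 had 12766 bp (chr7:28372623-28385388), with folds of 27.4 and 20.4 and 95.7% of the width covered by replicate 2. Sgk1, a serum-induced kinase, had 12585 bp (chr10:21991043-22003627), and Dusp1, a MAP kinase phosphatase, 11086 bp (chr17:26499205-26510290). In these 5 members the longest transcript starting inside lay wholly within the merged region.

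The other members of the 15 widest were of mixed function. A region of 11334 bp (chr11:86576563-86587896) overlapped the body of Vmp1, an autophagy gene, and contained Mir21a, with folds of 22.6 and 13.7. Cytip, a regulator of integrin adhesion in leukocytes, had 10673 bp, Cd44, the hyaluronan receptor, 10235 bp, and Plin2, the coat protein of lipid droplets, 10110 bp. The AM surface gene Plet1 had 9511 bp and the intermediate filament gene Vim 9461 bp, and 9534 bp overlapped the body of Iqgap1, a cytoskeletal scaffold. Rgs1, an inhibitor of G-protein signaling, differed from the others in this group. Its 9541 bp were a single peak of replicate 1 (fold 17.5), but replicate 2 covered only 10.2% of them (fold 5.36).

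**Figure D1:**
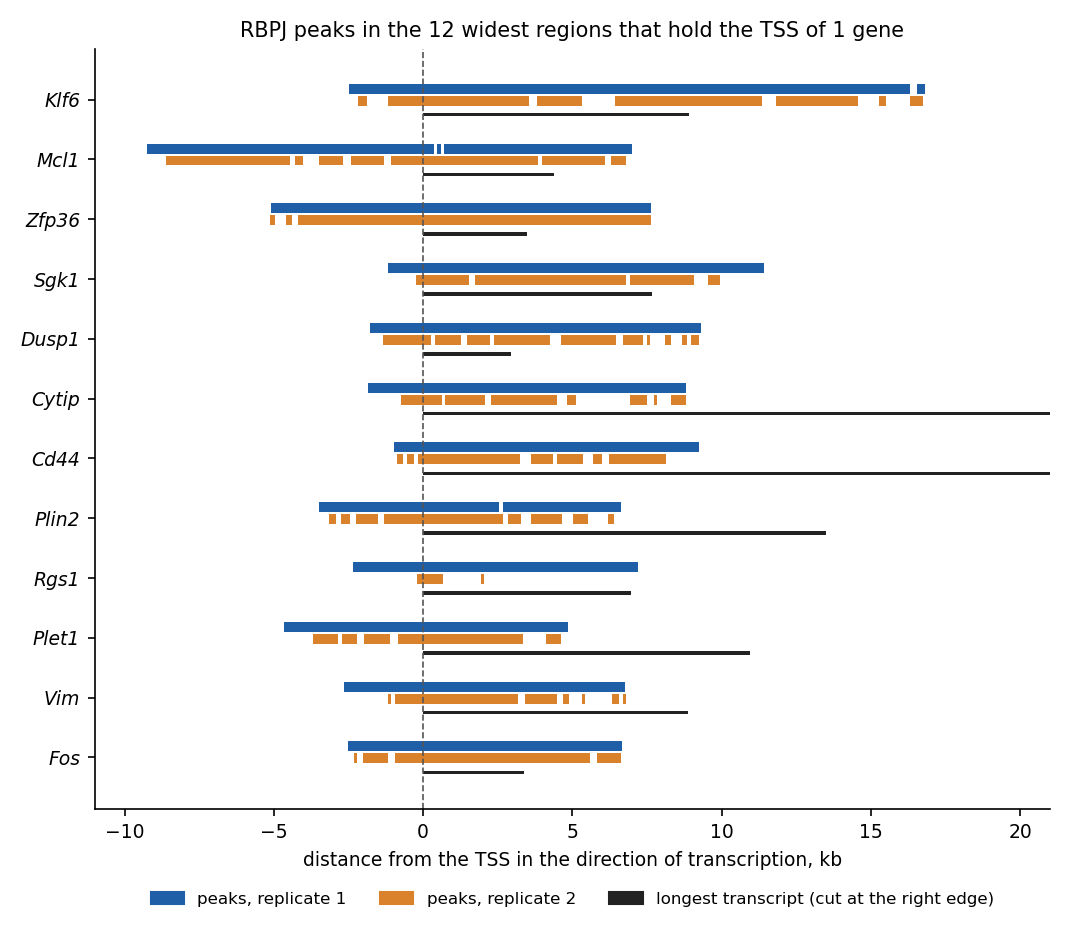
Peaks of replicate 1 (blue) and replicate 2 (orange) in the 12 widest regions that hold the TSS of exactly 1 protein-coding gene, by distance from that TSS in kb in the direction of transcription, with the longest transcript starting inside the region in black. Peaks of Klf6 reached 16790 bp downstream, replicate 1 gave 1 to 3 peaks and replicate 2 gave 2 to 10 peaks per region, and Rgs1 was nearly empty in replicate 2.

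Widths ran from 3001 to 21236 bp, with a median of 3871 bp (quartiles 3338 and 5132 bp). Of the members, 259 exceeded 4 kb, 142 exceeded 5 kb, 26 exceeded 8 kb and 11 exceeded 10 kb. Just inside the limit were a 3001 bp region over Trim25 (folds 15 and 9.71), one of 3001 bp near Dleu7 (17.0 and 11.7) and one of 3002 bp near Tmed10 (11.2 and 5.69). Just outside it were 3000 bp over Ap5s1 (13.4 and 6.27), 2993 bp over Sort1 (11.9 and 9.71) and 2990 bp over Nus1 (14.5 and 10.7). The folds on both sides of the limit overlapped.

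The median highest fold of the members was 14.0 in replicate 1 and 9.04 in replicate 2, against 6.09 and 5.02 for the other consensus regions. The median highest −log10 q was 46.8 and 16.6, against 11.8 and 5.30. These values come from the peaks that chose the members and are given without a test, and a wider region can hold more peaks from which the highest is taken.

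The libraries differed in how they filled the members. Replicate 1 usually gave 1 unbroken peak (384 of 547 members), and its peaks covered a median of 100% of the width. Replicate 2 gave a median of 3 peaks, and its peaks covered a median of 63.1% (quartiles 50.6 and 75.6%). A single peak over 3 kb stood in 441 members in replicate 1, in 84 in replicate 2 and in 68 in both, and 90 members passed the limit only after merging. More bases were covered in replicate 1 than in replicate 2 in 536 of 547. Egr1, an early-response zinc-finger factor, went the other way, with 11 peaks covering 63.1% of its 7309 bp in replicate 1 and 1 peak covering 100% in replicate 2. The strongest summits of the 2 libraries lay within 500 bp of each other in 323 members (59.0%).

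**Figure D2:**
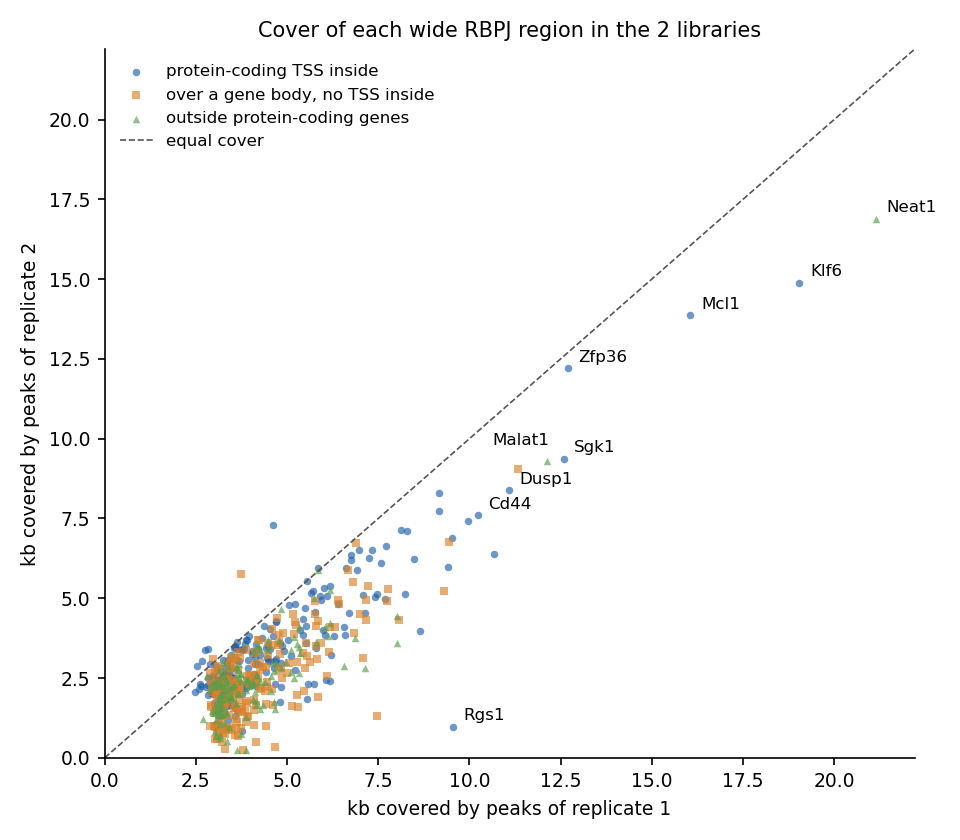
Kb covered by peaks of replicate 1 (x axis) and of replicate 2 (y axis) in each of the 547 wide regions, colored by position relative to protein-coding genes, with equal cover dashed. Nearly all points lie below the dashed line (536 of 547). Rgs1 stands apart among the widest members, with 10.2% of its width covered in replicate 2. Narrower members with less cover there include a Kcna3 region (6.24%) and a Cytip region (7.09%).

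Selection in a single library allowed the other to be read independently of the rule. All 444 peaks of replicate 1 over 3 kb were overlapped by a peak of replicate 2 (100%, Wilson 95% interval 99.1 to 100%), which covered a median of 61.1% of their bases. Among 7051 peaks of 0.75 to 1.5 kb, 86.2% were overlapped (85.4 to 87.0%), with a median cover of 41.7% over all of them. Longer peaks are overlapped more often by their length alone, which the cover is less subject to. Of the 444, only 71 were overlapped by a replicate 2 peak that itself exceeded 3 kb. In the other direction, all 86 peaks of replicate 2 over 3 kb were overlapped in replicate 1, with a median cover of 99.9%, and 70 of them met a peak over 3 kb. Intervals here and below cover counting error over regions only.

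By position, 201 members (36.7%, 32.8 to 40.9%) held a protein-coding TSS, 206 (37.7%) lay over a gene body without a TSS and 140 (25.6%) lay outside protein-coding genes. Among the other consensus regions the shares were 20.2%, 48.1% and 31.7%. A longer interval holds a TSS more often by its length, so these shares describe what the members cover. Exactly 1 protein-coding gene started in 183 members and 2 genes in 18. Counted by bases, 8.40% of the wide sequence was protein-coding exon, 52.8% intron and 38.8% outside such genes, close to 8.60%, 49.4% and 42.0% for the other regions. Among regions with a TSS inside, exons took 15.4% of the bases of the members and 25.8% of those of narrower regions.

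The point of strongest signal was then compared, since it is a single position per region. It is not free of the width, as a longer interval offers more room and more peaks from which the strongest is taken. Summits lay within 1 kb of a protein-coding TSS in 111 of 547 members (20.3%) and in 7742 of 24907 other consensus regions (31.1%), a difference of -10.8 percentage points (Newcombe 95% interval -14.0 to -7.17). With the summits of replicate 1 the difference was -10.7 points, and with those of replicate 2 it was -7.35 points. This result did not hold in the single lists, where members, merging and comparison regions all differ from those above. Among peaks of replicate 2 alone, those over 3 kb lay at a TSS more often than the rest, by 15.1 points (5.50 to 25.7), and among peaks of replicate 1 alone the difference was -1.75 points, with an interval (-4.83 to 1.92) that held 0.

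Members with the TSS of 1 gene mostly reached further into the gene than upstream of it. Of the 183 members with the TSS of 1 gene, 140 (76.5%, 69.9 to 82.1%) extended further downstream than upstream of the outermost TSS inside, against 1207 of 4412 narrower regions (27.4%). The difference was 49.1 points (42.4 to 54.9). It was 50.8 points with the edges of replicate 1 peaks, 43.0 with those of replicate 2 and 48.0 when measured from the TSS nearest to the summit. Members had a median of 1380 bp upstream and 3079 bp downstream, and narrower regions 405 and 174 bp.

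The profile of cover around the TSS showed the same asymmetry in each library. At 1 kb downstream, peaks of replicate 1 covered 84.7% and peaks of replicate 2 covered 75.4% of the 183 members, against 61.7% and 37.2% at 1 kb upstream. At 3 kb downstream the cover was 49.2% and 33.3%, and at 3 kb upstream 10.9% and 7.10%. Narrower regions were covered at the TSS in 89.4% and 79.9%, and 1 kb downstream in 6.55% and 4.17%. Absence of cover 3 kb from the TSS in narrower regions follows from their width.

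**Figure D3:**
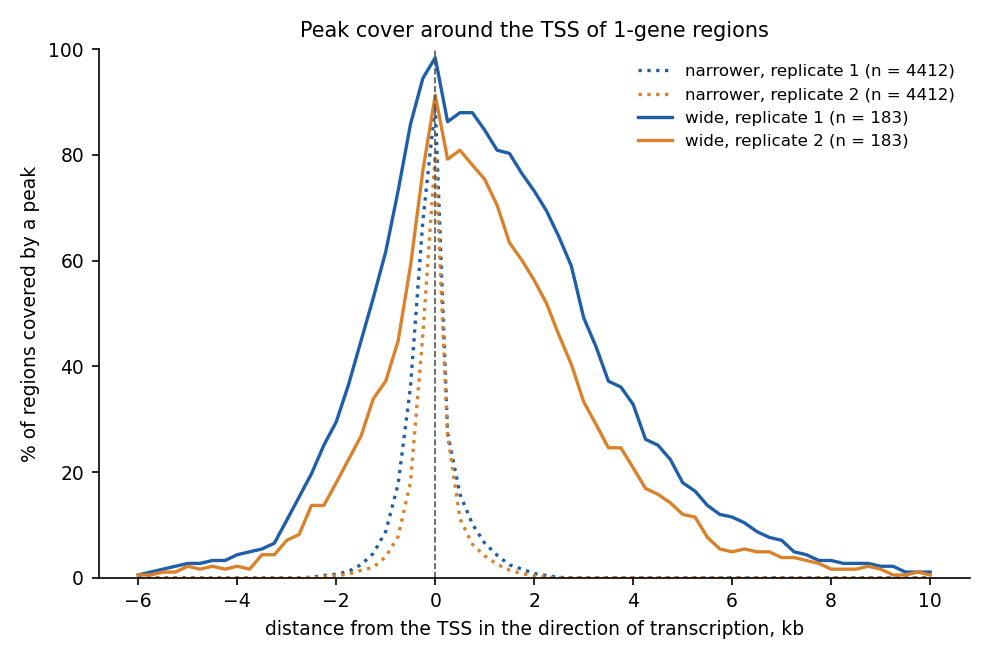
Percent of regions covered by a peak (y axis) by distance from the outermost TSS in kb in the direction of transcription (x axis), for wide (solid, n = 183) and narrower regions (dotted, n = 4412) with 1 gene, in replicate 1 (blue) and replicate 2 (orange). Cover of wide regions falls slowly downstream, to 49.2% and 33.3% at 3 kb, and faster upstream, to 10.9% and 7.10%.

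Some short genes were covered whole. The longest transcript starting inside was covered from end to end in 24 of 183 members, all 24 among the 56 with transcripts of 10 kb or less (42.9%), and in 7 of 4412 narrower regions, a contrast set by the selection, since a region of 3 kb or less cannot cover a longer transcript. Transcripts had a median length of 17779 bp in members and 21054 bp in narrower regions. Besides the 5 genes named above, whole transcripts were covered at the AP-1 genes Fos, Jun and Junb, at the early genes Egr1, Ier2 and Btg2, at the ferritin genes Fth1 and Ftl1, at Cd14, the coreceptor for lipopolysaccharide, and at Mpeg1, a pore-forming protein of phagosomes. Others were Rgs1, Ccl6, P2ry13, Pnrc1, Hcar2, Gpx1, Ppp2r3d and Mt1. This cover is by the merged region, not by the peaks of each library. Replicate 2 covered 10.2% of the region width at Rgs1, 39.3% at Cd14 and 46.0% at Ccl6, but 90.4% at Fos and 98.2% at Junb. Replicate 1 covered 63.1% at Egr1. Fth1, which encodes the ferritin heavy chain, had a region of 8517 bp of which 368 bp lay upstream of the TSS.

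Gene lists were read against the background that 219 of 21755 protein-coding genes (1.01%) had a TSS inside a wide region, or 219 of 5662 with a TSS inside any consensus region (3.87%). The lists were chosen with earlier results of these data known, so their shares are a description and no independent evidence. The immediate early list stood highest, with 19 of 40 genes (47.5%, 32.9 to 62.5%). These are genes induced by stimuli without new protein synthesis, and besides Klf6, Mcl1, Zfp36, Sgk1 and Dusp1 they included Fos (9170 bp, folds 20.3 and 13.7), Trib1, Btg2, Fosl2, Ier2, Egr1, Jun (6719 bp, 22.1 and 16.5), Jund, Junb, Atf3, Maff, Nr4a3, Btg1 and Fosb. As a protein family, bZIP factors counted 10 of 43 members, 8 of which were in the early list and the other two were Creb5 and Nfe2l2.

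AM and macrophage genes followed. Of 30 AM identity genes, 9 had a TSS inside (30%, 16.7 to 47.9%). Plet1 was widest, then Pparg (6563 bp, folds 16.5 and 7.26), the nuclear receptor required for AM development, Chil3 (6218 bp, 16.6 and 18.7), a chitinase-like secreted protein, and Atp6v0d2 (6166 bp, 10.9 and 9.71), a subunit of the lysosomal proton pump. Olr1, Tlr2, Mrc1, Cidec and Itgax completed the list, and 21 genes had none. Itgax, which encodes CD11c, was thinly supported, with 22.0% of its 3761 bp covered in replicate 2. Among pan-macrophage and lysosome genes, 8 of 25 counted (32.0%, 17.2 to 51.6%), led by Fth1 (8517 bp), Ftl1 (6029 bp), Lgals3 (5002 bp), the galectin-3 gene, and Cd68 (4873 bp), a lysosomal membrane glycoprotein.

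Of 36 macrophage transcription factors, 9 had a TSS inside (25%, 13.8 to 41.1%). After Klf6 and Pparg came Runx1 (5831 bp, folds 11.7 and 10) and Klf13 (5787 bp, 15.2 and 8.70), and the list went on with Atf3, Bhlhe40, Nfe2l2, Zeb2 and Tfec. Klf6 and Atf3 were also in the early list and Pparg in the AM list. Innate signaling counted 6 of 36 (16.7%), namely Tnfaip3 (7841 bp), an inhibitor of NF-κB, Cd14 (6170 bp), Tlr2 (5448 bp), Rel (4453 bp), Nfkbid and Tlr4. The IRF and STAT family counted 0 of 16 and the ETS family 0 of 24, of which 10 and 9 had a TSS in a consensus region, so that both zeros are at the background of 3.87%.

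Other lists had few members. Lipid handling counted 3 of 30 (Plin2; the scavenger receptor Cd36, 5642 bp; and the lysosomal lipase Lipa, 3656 bp), cytoskeleton and adhesion 3 of 35 (Cd44, Vim and Itgb2) and RNA processing 3 of 35 (Ddx5, 5492 bp; Hnrnpa2b1, 3429 bp; and Srsf3, 3298 bp). GM-CSF and TGF-β signaling counted 2 of 25, which were Skil (5054 bp) and Tgif1 (4739 bp), both corepressors of SMAD proteins. Chromatin regulators counted 2 of 37 (Chd2, 7710 bp, and Brd2, 3370 bp), housekeeping genes 2 of 20 (Ywhaz, 3297 bp, among them) and the BCL2 and apoptosis list only Mcl1 of 26. Ribosomal protein genes, of which 75 of 83 had a TSS in some consensus region, counted 2 (Rpl41 and Rpl18). Families taken by gene symbol were mostly near the background, with 3 of 394 Zfp genes (Zfp36, Zfp608 and Zfp91), 1 of 342 solute carriers (Slc15a3), 2 of 153 Rnf and Trim genes (Trim25 and Trim41) and 1 of 52 chemokines and receptors (Ccl6). DUSP, TRIB and Zfp36 genes counted 3 of 45 (Zfp36, Dusp1 and Trib1), KLF and SP factors 2 of 29 (Klf6 and Klf13) and nuclear receptors 2 of 49 (Pparg and Nr4a3). Developmental homeobox, Sox, Pax and Tbx factors (0 of 142), motor proteins (0 of 86) and olfactory receptors (0 of 1134) had no member. Only 1, 18 and 1 of these genes had a TSS inside any consensus region, so the zeros are at the background of 3.87%.

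Notch genes were absent from the members. Of 34 Notch pathway and RBPJ cofactor genes, 21 had a TSS inside a consensus region and 0 inside a wide one, and the widest region at any of them was 2185 bp. Of 16 canonical Notch targets 4 and 0 did so, the widest region being 2965 bp, just below the limit. The nearest case was a member of 3028 bp at chr11:69113015-69116042, with folds of 9.89 and 4.69, which lay outside genes and was assigned to Hes7, an effector of Notch, by the nearest TSS. At the background of 3.87%, 0 of the 21 and 0 of the 4 genes with a TSS in a consensus region are not a result about Notch genes. Loci that the study displays counted 3 of 13 (Cd36, Itgax and Zeb2), a list chosen on these libraries and no independent evidence.

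**Figure D4:**
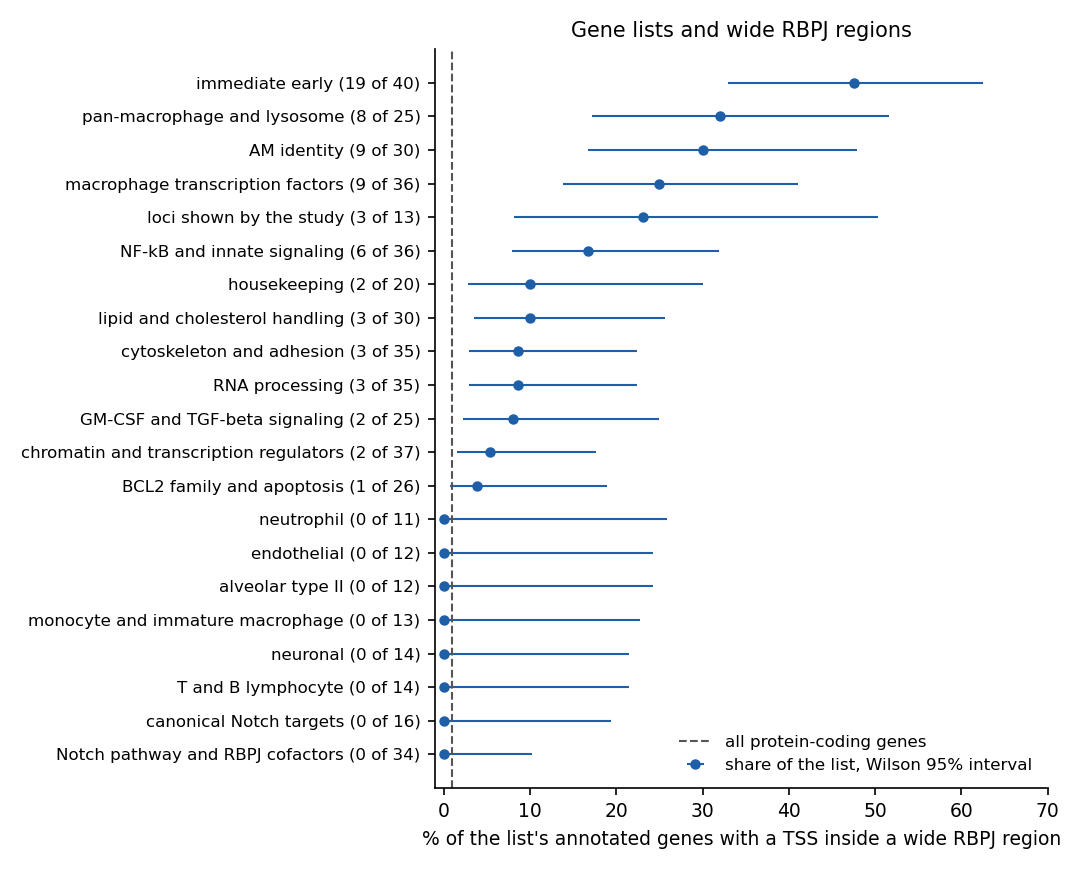
Percent of each list's annotated genes with a TSS inside a wide region (x axis, points with Wilson 95% intervals), ordered by value, with the dashed line at 1.01% for all protein-coding genes. Immediate early genes stand at 47.5%, pan-macrophage, AM identity and macrophage transcription factor lists between 25 and 32.0%, and the Notch lists and the lists of other cells at 0.

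Noncoding genes also started inside members. Long noncoding RNA genes did so in 60 members (11.0%), miRNA genes in 11 (2.01%) and small nuclear or nucleolar RNA genes in 5 (0.914%). A longer interval holds such a start more often by its length. Shares for the other consensus regions were not computed, so these counts only describe what the members cover. By the RefSeq hairpins of GRCm38.p6, 7 miRNA genes lay wholly inside 6 members, among them Mir21a and Mir142. Mir21a lay in the Vmp1 region and Mir142 in a region of 5923 bp (chr11:87754633-87760555, folds 8.63 and 13.4). That second region held the whole of the lncRNA gene Mir142hg and reached 14 bp past a TSS of Tspoap1. The mature sequences of Mir21a and Mir142 are shown because both are known as abundant miRNAs of macrophages. Capitals mark the seed, bases 2 to 8, and the 4 seeds differ from each other.
miR-21a-5p: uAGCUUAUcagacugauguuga
miR-21a-3p: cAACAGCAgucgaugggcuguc
miR-142a-5p: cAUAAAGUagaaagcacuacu
miR-142a-3p: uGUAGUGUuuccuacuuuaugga

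Members without a protein-coding TSS were 346, and 138 of them had an edge within 10 kb of one, while 72 lay over 50 kb away. The end of a protein-coding gene fell inside 26. The farthest was a member of 3187 bp at chr15:62390875-62394061, 403453 bp from the nearest TSS and assigned to Myc, with folds of 7.55 and 8.70. Others lay 320233 bp from a TSS near Dleu7, 272870 bp inside Nfia, 242543 bp near Gm826 and 205156 bp inside Ext1. Their folds, 12.9 to 19.0 in replicate 1 and 6.02 to 11.7 in replicate 2, were in the range of the other members.

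Along the chromosome, 193 of 547 members (35.3%) lay within 20 kb of another, in 78 clusters. The same count was not made for the other consensus regions, so this share is a description. Some neighbors were parted by only a short gap. At Vim, a member ended at base 13580759 of chromosome 2 and the next began at 13580850. The largest stretched over Abcg1, a cholesterol exporter of macrophages, with 6 members, 4 of them over its body and 1 nearest to Umodl1. Clusters of 4 stood at Vim with Trdmt1, at Cytip, Plin2, Cd9, Cd44, Eed with Picalm, and the formyl peptide receptor genes Fpr1, Fpr2 and Fpr3. Counting at any distance, Cd44 had 7 members besides that at its TSS, 3 over its body and the rest outside genes up to 90310 bp from a TSS. The member at 90310 bp lay just past the end of Cd44. Nceh1, a cholesterol ester hydrolase, had 4 members over its body and none at its TSS, and Nedd9, an adhesion scaffold, 4 over its body besides 1 at a TSS. Both Cebpb members lay off its TSS, a 6177 bp region by 1110 bp (folds 14.0 and 15.1) and a 6130 bp region by 83384 bp (18.7 and 16.1). The 18 members with TSSs of 2 genes included those of Jund and Iqcn (6644 bp), Cep170 and Sdccag8 (6117 bp), Ddx5 and Cep95 (5492 bp) and Mpdu1 and Cd68 (4873 bp).

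Sequence at the summits differed from that of narrower TSS regions. A window was called CpG-rich when, within 250 bp of the summit, GC was at least 50% and CpG stood at 0.6 or more of its expected frequency. Among regions with a TSS inside, this held for 48 of 201 members (23.9%, 18.5 to 30.2%) and for 3498 of 5023 narrower regions (69.6%, 68.4 to 70.9%), a difference of -45.8 points (-51.3 to -39.3). Summits of members lay further from the TSS. Of members with 1 gene, 87 of 183 had them within 1 kb of that TSS, against 4330 of 4412 narrower regions. The selection on width bears on this contrast, since a summit in a short region that holds a TSS cannot lie far from it. The remaining member summits lay over 1 kb downstream in 63 and over 1 kb upstream in 33. Restricted to summits within 1 kb of a TSS the difference was -26.2 points (-35.4 to -16.6), and around the TSS itself, where 99 of 183 members (54.1%) and 3507 of 4412 narrower regions (79.5%) were CpG-rich, it was -25.4 points (-32.7 to -18.2). Both restrictions were chosen after the values were seen. Among regions without a TSS, 2.02% of members and 6.49% of the others were CpG-rich. Over all 547 members and all other consensus regions the shares were 10.1% and 19.2%, a difference of -9.17 points (-11.5 to -6.32).

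Of 15 motifs searched in both orientations up to 100 bp from the summit, 8 differed between the 201 members and the 5023 narrower regions with a TSS inside, by a Newcombe interval that left out 0. More frequent were AP-1 (TGANTCA, 13.4% against 4.52%, difference 8.91 points, 4.83 to 14.3), CEBP (TTGCNNAA, 15.9% against 8.54%, 7.38 points, 2.90 to 13.1) and PU.1 (GAGGAAGT, 8.96% against 3.40%, 5.55 points, 2.29 to 10.3). Over all members and all other consensus regions, PU.1 was not called (1.75 points, -0.299 to 4.37). The PU.1 difference turned to -0.989 points among peaks of replicate 2 alone. The CEBP difference lost its call there (3.91 points, -1.95 to 14.9), at a limit of 5000 bp (5.14 points, -1.08 to 15) and over doubly covered width (5.10 points, -0.527 to 13.5). AP-1 was higher under every alternative tried. Less frequent were the GC box of SP factors (GGGCGGGG, 4.98% against 18.9%, -13.9 points), the promoter type of ETS site (CCGGAAGT, 0.995% against 8.86%, -7.86 points), NRF1 (CGCANGCGC, 0.498% against 7.23%, -6.73 points), the E-box (CACGTG, 3.48% against 8.06%, -4.58 points) and YY1 (AAGATGGCG, 0% against 2.67%, -2.67 points). The 0 of 201 for YY1 has an upper Wilson bound of 1.88%. These less frequent motifs kept their direction under every alternative. YY1 lost its call in 6 alternatives, the E-box in 4, and ETS and NRF1 in 1 each.

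The RBPJ site did not separate the groups. Its core letters TGGGAA stood in 33 of 201 member windows (16.4%, 11.9 to 22.2%) and in 890 of 5023 narrower ones (17.7%), a difference of -1.30 points (-5.91 to 4.53), and the extended form GTGGGAA, which contains the core, in 7 (3.48%) and 222 (4.42%), a difference of -0.937 points (-2.82 to 2.63). Both differences changed sign under other settings without an interval leaving out 0. CRE (TGACGTCA), STAT (TTCNNNGAA), NF-kB (GGAANTCCC), IRF (GAAANNGAA) and ZNF143 (ACTACAATT) did not pass either. With summits within 1 kb of a TSS, PU.1 (5.20 points), AP-1 (4.03), ETS (-8.03), NRF1 (-6.39) and GC box (-11.6) still passed, CRE passed (3.65), and CEBP, E-box and YY1 did not. All 5 less frequent motifs contain CG, as does CRE, while narrower regions had the higher share of CpG-rich windows, and the part of base composition in the differences was not tested.

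Among regions without a TSS inside, CEBP letters stood in 81 of 346 members (23.4%), 7.81 points (3.63 to 12.6) more often than in the other regions, and the E-box in 4 (1.16%), -3.01 points (-3.77 to -1.21). The other 13 motifs did not pass there, PU.1 (0.546 points) and AP-1 (2.90 points) included. Windows that carry each motif are shown for members with a TSS inside, 30 bp either side of the center of the match, which is in capitals. At Plin2 the PU.1 and AP-1 matches were neighbors, the last base of the AP-1 match being the first of the PU.1 match on the plus strand.
Plin2 (PU.1), chr4:86672016-86672076, plus strand: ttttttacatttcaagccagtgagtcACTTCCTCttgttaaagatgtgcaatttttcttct
Plin2 (AP-1), chr4:86672009-86672069, plus strand: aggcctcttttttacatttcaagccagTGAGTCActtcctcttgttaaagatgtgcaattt
Ccnl1 (CEBP), chr3:65957196-65957256, plus strand: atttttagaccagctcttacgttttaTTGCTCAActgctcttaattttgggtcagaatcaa
Pik3ap1 (RBPJ extended), chr19:41383044-41383104, plus strand: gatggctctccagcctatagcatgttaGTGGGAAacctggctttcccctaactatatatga
Klf13 (RBPJ extended), chr7:63936424-63936484, plus strand: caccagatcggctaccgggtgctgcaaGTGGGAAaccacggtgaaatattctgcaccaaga

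**Figure D5:**
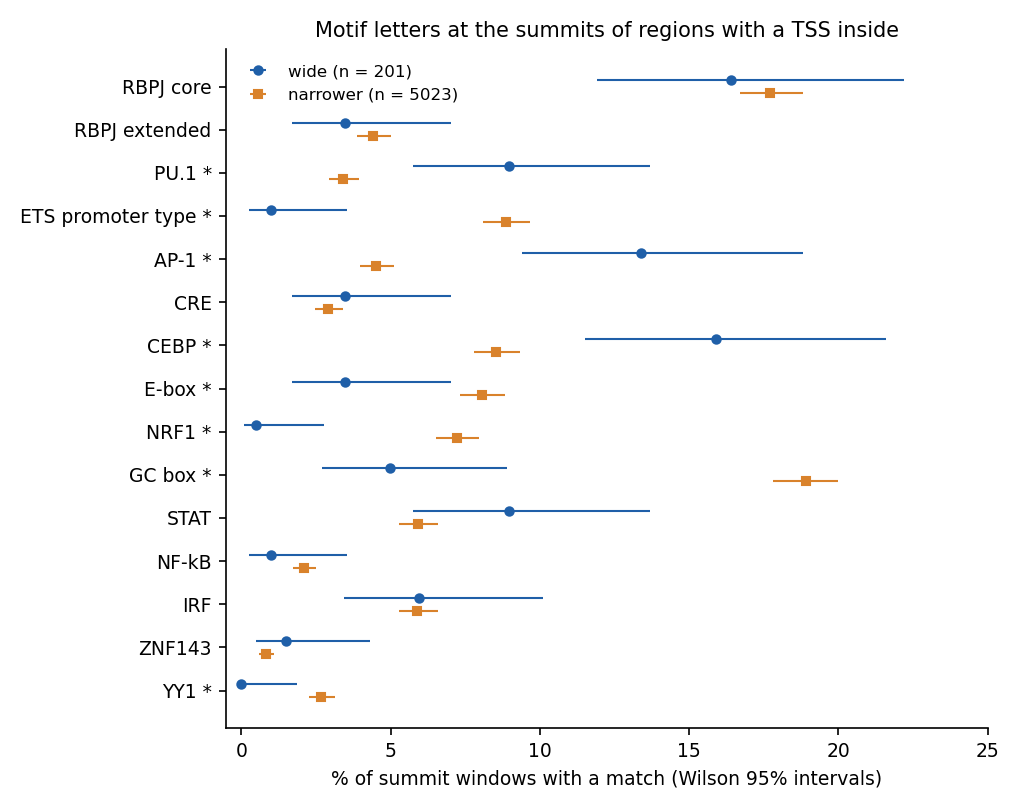
Percent of windows within 100 bp of the summit that hold each motif (x axis, Wilson 95% intervals) in wide (blue circles, n = 201) and narrower regions (orange squares, n = 5023) with a TSS inside. Asterisks mark the 8 motifs whose difference has an interval without 0, AP-1, CEBP and PU.1 higher in wide regions and the GC box, ETS, NRF1, E-box and YY1 lower.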

How the data were processed

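According to the study's methods and the submitters' processing notes, reads were trimmed with cutadapt, aligned to mm10 with Bowtie2 and filtered with SAMtools, and peaks were called by the authors for each RBPJ library with MACS3 against input at a q of 0.05. The deposited lists hold start, end and summit, the fold enrichment at the summit as a ratio over background, the −log10 p-value and −log10 q-value, and a display score, of which the score and p were not used. The lists hold no read counts, the study's table of read totals was not used here, and with 2 libraries the precision is limited by their number.

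Peaks overlapping by at least 1 bp were merged (Python 3.11.15, numpy 2.4.6, pandas 2.3.3, pysam 0.24.0, figures with matplotlib 3.10.9). Peak ends did not exceed the chromosomes of GRCm38, from which sequence and GENCODE vM21 models were taken. Shares carry Wilson and differences Newcombe 95% intervals, and a difference counted as called when its interval left out 0, without adjustment over the motifs. Members are named by protein-coding genes with a TSS inside, otherwise by the gene body overlapped most, otherwise by the nearest TSS. Members, the 21 gene lists, 15 gene families, 15 motifs and comparisons were chosen with earlier results of these data known. Genes are named by rule: the 15 widest members, those next to the limit, up to 4 of each list in its widest regions, the 5 farthest from a TSS, the 5 with most genes and loci of the study. Whole lists, covered transcripts, clusters and noncoding genes are also named, chosen after their values were seen. Printed windows avoid annotated UTRs. Problematic genome regions were not removed. A few genes and 1 gene family are not reported here. The steps were checked on simulated peaks and sequence. Alternatives were other width limits, stricter peaks, single libraries, doubly covered width, 100 bp overlap, all transcripts and autosomes only.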

Additional observations from a re-analysis of the deposited data

How the results depend on the processing

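No paired analysis was possible because the inputs that share replicate numbers with the RBPJ libraries have no file of their own here. The reach downstream of the TSS and the lower share of CpG-rich windows kept their direction and an interval without 0 under every alternative run for them. A limit of 2000 bp gave 1530 members, of which 29.0% held a TSS. A limit of 5000 bp gave 142 members, 50.7% with a TSS, 3 motifs called in place of 8 and 36 in place of 62 listed genes. Over 3000 bp covered in both libraries gave 175 members, 53.7%, 5 motifs and 39 genes. All annotated transcripts put a TSS inside 41.3%. Leaving out a library gave 86 (replicate 2 alone) to 444 (replicate 1 alone) members, of which 30.2 to 64.0% held a TSS, with 4 to 7 motifs and 29 to 43 genes. The difference in summits at a TSS ran from -1.75 to 15.1 points there, so it lost its call with replicate 1 alone and turned with replicate 2 alone. Members, merging and comparison regions change together there, and the cause was not tested. Of the motif differences in points, PU.1 ran from -0.989 to 6.90, RBPJ core from -2.75 to 0.955 and RBPJ extended from -1.23 to 0.499 with 1 library left out. With windows of 250 bp the RBPJ core came to 6.43 and the extended form to 3.46, and with summits within 1 kb of a TSS the extended form came to 0.252. Of 120 motif values under alternatives, 97 kept direction and call, 17 kept direction only and 6 turned. The number of libraries limits every statement, and intervals treat regions as separate although neighbors share chromatin.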

Other observations

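A member of 5881 bp at chr17:39842964-39848844 held an annotated rRNA gene (CT010467.1) and the lncRNA genes Gm26917, Gm42418 and AY036118. Its folds were low for its significance, 3.43 and 4.95 with a −log10 q of 66.0 and 145, and each library covered it with 1 peak (99.3% and 100%). The X chromosome held 2 of 246 consensus regions as members (0.813%), and the autosomes ranged from 1.38% on chromosome 14 to 2.77% on chromosome 3. Among members, the 2 highest folds of replicate 2 stood in regions narrower than the median of 3871 bp. They were 33.5 at Cltc (3562 bp, 21.1 in replicate 1) and 30.1 at Hnrnpa2b1 and Cbx3 (3429 bp, 16.5 in replicate 1). Both exceeded the 27.8 at Neat1 and were chosen after their values were seen.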
